A study of Drosophila melanogaster with 6 samples.

Results

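Glutathione S-transferases (GSTs) and UDP-glycosyltransferases (UGTs) are the main conjugating enzymes of insect detoxification, and their transcripts were measured in heads of pum kd and control flies. Members were chosen by symbol alone: a name that begins Gst followed by D, E, O, S, T or Z and a digit, or Ugt followed by a digit. The rule gave 70 genes of the 17807 in the count table, 35 GST and 35 UGT genes. The GST genes fall into the delta class (11 genes), epsilon (14), omega (3), sigma (1), theta (4) and zeta (2). The largest UGT families are UGT37 (8 genes), UGT35 (6), UGT36 (4) and UGT303 (4).

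GSTs join reduced glutathione to reactive, often toxic molecules such as insecticides and products of lipid oxidation, and the delta and epsilon classes are particular to arthropods. Omega enzymes mainly reduce disulfides and related bonds, and the zeta class contains the isomerase of tyrosine breakdown. UGTs move a sugar, in insects mostly glucose, from a UDP-sugar to small lipophilic molecules, including plant compounds, hormones, pigments and odorants. In the head such enzymes are known from the antenna, where they are thought to clear odorants, and from fat body.

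The study asked how knockdown of pum, which encodes the RNA-binding protein Pumilio, in gut stem cells (ISCs) and in the corpus allatum (CA, which secretes juvenile hormone) is reflected in the head. Poly-A RNA was sequenced from heads of male flies, with 3 pum kd and 3 control libraries, each from 10 pooled heads. The pum kd flies carried UAS-pumRNAi (the TRiP.HMS01564 line in attP2), and the control flies carried UAS-mCherryRNAi (VALIUM20, in attP2), aimed at a protein that flies do not have. Both groups are listed as w1118 over a y1, sc*, v1, sev21 chromosome. These markers lie on the X chromosome, of which males have a single copy, and which form the sequenced flies carried is not stated. Both groups also carried esg-Gal4 and UAS-2xYFP with Su(H)GBE-Gal80, which blocks the driver in enteroblasts. They further carried tub-Gal80ts, which holds the driver off at 18 °C, the rearing temperature. Flies were shifted to 29 °C for transgene expression and were 6 to 8 days old at their sleep assay. After the assay, the flies of each genotype were pooled and kept at 29 °C for 30 minutes to recover before freezing. The cells targeted lie in the gut and in a single gland, whereas whole heads were sequenced. The paper adds that esg-Gal4 can also be active in some neurons of the adult brain, and how far it was so in these flies was not measured here. In whole heads, fewer cells of a type and less RNA per cell cannot be told apart. Each library is a separate pool of heads, and the labels do not say whether the pools came from separate cultures, so the p-values measure the spread between these pools.

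Gene counts summed to between 33258537 and 39377789 per library. Levels are in CPM, the usual count normalized for library size, here with TMM factors, and levels of different genes are compared as CPM per kilobase of exon. Sums over a class are in CPM, for comparing libraries, unless a sum is given per kilobase. Transcripts of pum were 176, 192 and 228 CPM in pum kd heads and 346, 168 and 270 CPM in control heads, which overlap. The log2 fold change was -0.40 (SE 0.25, adjusted p = 0.993 by edgeR), and -0.15 with the correction for gene length described below. The marker lists of midgut, testis and accessory gland each summed to at most 1.95 CPM in any library. Neuron, photoreceptor, muscle and head fat body markers were detected in all libraries, and their summed levels overlapped between the groups. The 3 glial markers summed to between 190 and 195 CPM in pum kd libraries and between 149 and 163 CPM in control libraries, which do not overlap. Of the 3 Malpighian tubule markers listed, 2 were found in the counts, and 1 of these had no read in any library. The other had between 3.66 and 6.28 CPM in pum kd libraries and between 6.56 and 10.1 CPM in control libraries. This single gene was also without overlap. The part of these differences in the results below was not tested.

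The genes lie mostly in arrays. Of the 70 genes, 50 fall into 11 groups whose neighbouring members are at most 20000 bases apart in dm6 coordinates. All 11 delta GST genes lie on chromosome arm 3R between 12364776 and 12385624, and 10 of the 14 epsilon genes lie on 2R between 18396638 and 18409835. The largest UGT array, with 9 genes (Ugt302C1, Ugt302E1, Ugt302K1, Ugt303A1, Ugt304A1, Ugt35A1, Ugt35B1, Ugt35E1 and Ugt35E2), lies on 3R between 11151026 and 11177910. The omega genes GstO1, GstO2 and GstO3 lie on 3L between 8518885 and 8524866. Exons of 11 of the 70 genes overlap an exon on the opposite strand, by 6 to 400 bases, and the strand setting of the counting is not stated, so reads in those stretches cannot be assigned with certainty. Reads that map to several places were kept out of the gene counts, which can lower the values of closely similar copies in these arrays.

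Reads were found for all 35 GST genes and for 28 of the 35 UGT genes. The filter on low counts left 55 genes to test, 33 GST and 22 UGT. The 7 UGT genes without a read in any of the 6 libraries were Ugt303B1, Ugt303B2, Ugt303B3, Ugt304A1, Ugt307A1, Ugt35D1 and Ugt49B2. A count of 0 allows a level of up to 3 counts, which is between 0.0801 and 0.0906 CPM in a library, for counting error only. The other 8 genes left out had at most 38 counts in a library.

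Within the GSTs, a pair of genes held much of the signal. GstD1, a delta enzyme known for its activity on the insecticide DDT, had the highest level of all 70 genes, at 660 ± 213 CPM per kilobase in pum kd heads and 549 ± 176 in control heads (SD, n = 3 each). GstE12 of the epsilon class was next, at 250 ± 68.6 CPM per kilobase in pum kd heads and 187 ± 56.1 in control heads. Of the GST levels summed per kilobase, GstD1 made up 38.6% in pum kd heads and 38.4% in control heads, and GstE12 made up 14.7% in pum kd heads and 13.2% in control heads. Below these lay a group of 5 genes between 56.5 and 63.4 CPM per kilobase in control heads, GstO3, GstT4, GstD9, GstE6 and GstE9, which did not differ from each other beyond their spread. In the same array as GstD1, GstD4, GstD5 and GstD8 averaged under 1 CPM per kilobase in control heads, and GstD6 and GstD7 had no read there.

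The UGTs were lower and more evenly spread. The highest were Ugt35B1, an enzyme described from the antenna, with 36.8 ± 5.58 CPM per kilobase in pum kd heads and 42.7 ± 0.534 in control heads, and Ugt49B1, with 36.6 ± 6.12 CPM per kilobase in pum kd heads and 28.5 ± 4.05 in control heads. They were followed by Ugt302C1 (20.7 ± 0.463 CPM per kilobase in pum kd heads, 25.4 ± 2.74 in control heads), Ugt37D1 (21.6 ± 0.911 in pum kd heads, 23.9 ± 3.05 in control heads) and Ugt49C1 (18.5 ± 2.81 in pum kd heads, 19.0 ± 3.89 in control heads). In control heads Ugt49B1, Ugt302C1 and Ugt37D1 did not differ beyond their spread. Summed per kilobase, the UGT genes reached 209 ± 11.9 CPM in pum kd heads and 220 ± 18.0 CPM in control heads, and the GST genes 1691 ± 396 CPM in pum kd heads and 1413 ± 363 CPM in control heads.

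**Figure D1:**
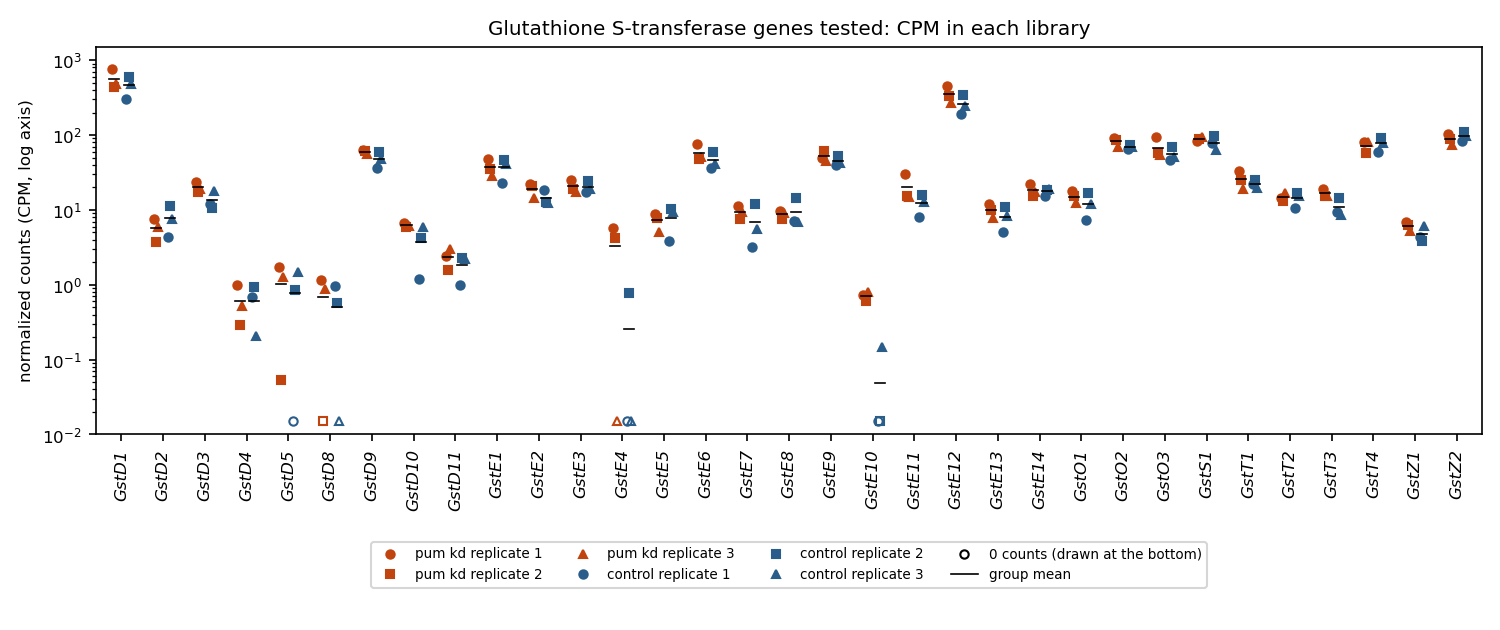
Level of each of the 33 GST genes tested, in CPM (not per kilobase) on a log axis, in the 3 pum kd libraries (orange) and the 3 control libraries (blue), with the group mean as a short line and open symbols at the bottom for 0 counts. For most genes the pum kd and control symbols overlap.

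**Figure D2:**
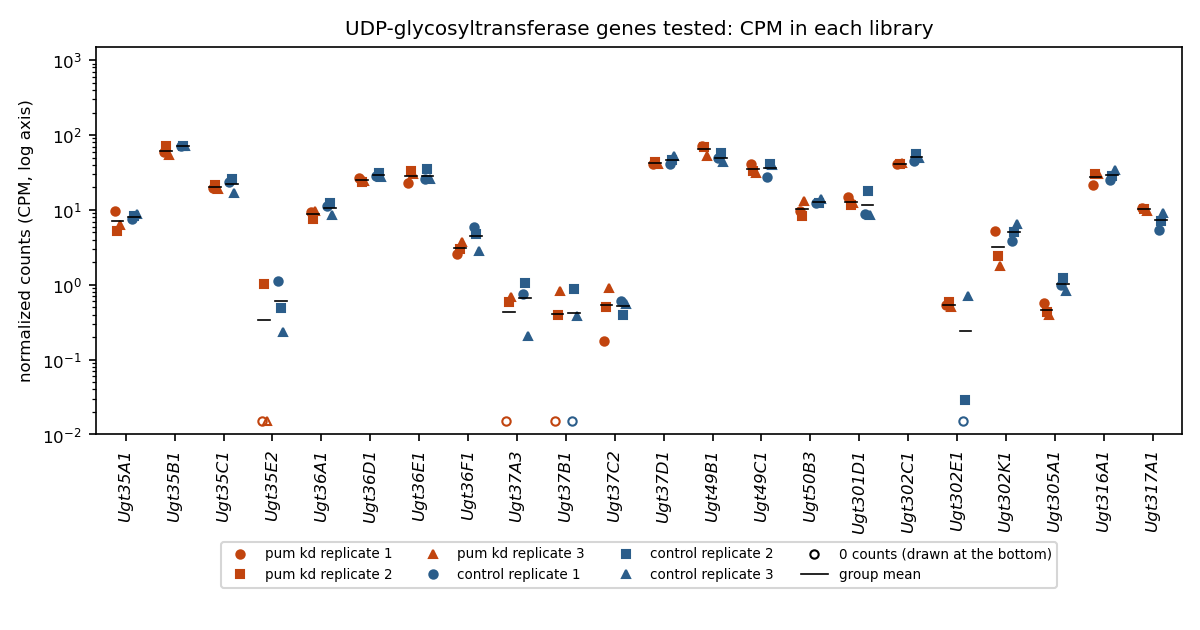
Level of each of the 22 UGT genes tested, in CPM (not per kilobase) on a log axis, in the 3 pum kd libraries (orange) and the 3 control libraries (blue), drawn as for the GST genes. Most genes lie between 2 and 100 CPM and overlap between the groups, and open symbols appear only among genes near 1 CPM or below.

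No GST or UGT gene passed the test between pum kd and control heads. A gene was called at an adjusted p under 0.05 (edgeR's quasi-likelihood test, Benjamini-Hochberg adjustment over the 10696 genes tested) and a log2 fold change of 1 or more in size, and 0 of 55 members were called, where 0.103% of all genes were. The lowest adjusted p among the members was 0.879. At an unadjusted p under 0.05 in the same test, 2 members were higher in pum kd heads (GstT3 and GstD3) and 0 were lower, which is 3.64% and 0% of the members tested, beside 3.28% and 1.66% of all genes. DESeq2 called 0 members as well, where it called 0.598% of all genes, and it gave 3 members higher and 0 lower at an unadjusted p under 0.05, beside 3.94% and 1.8% of all genes. The groups did not overlap in 6 of the 55 members tested. In 3 of them the pum kd libraries were the highest (GstT3, GstE10 and Ugt317A1) and in 3 the lowest (Ugt302C1, Ugt36D1 and Ugt305A1), 5.45% each way, beside 5.36% and 4.95% of all genes. These shares are near those of all genes.

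The fitted fold changes of the superfamilies lay on different sides of 0. Of the 33 GST genes tested, 26 had a log2 fold change above 0 and 7 below, with a median of 0.29. Of the 22 UGT genes tested, 5 were above 0 and 17 below, with a median of -0.18. Over all genes tested, 4878 were above 0 and 5818 below, with a median of -0.03. Among members that averaged 10 CPM or more, the 20 GST genes ranged from -0.12 to 0.70 and the 11 UGT genes from -0.32 to 0.36, with median standard errors of 0.24 and 0.20. Most single values are therefore of about the size of their error, and genes of an array are neighbours that need not vary independently.

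**Figure D3:**
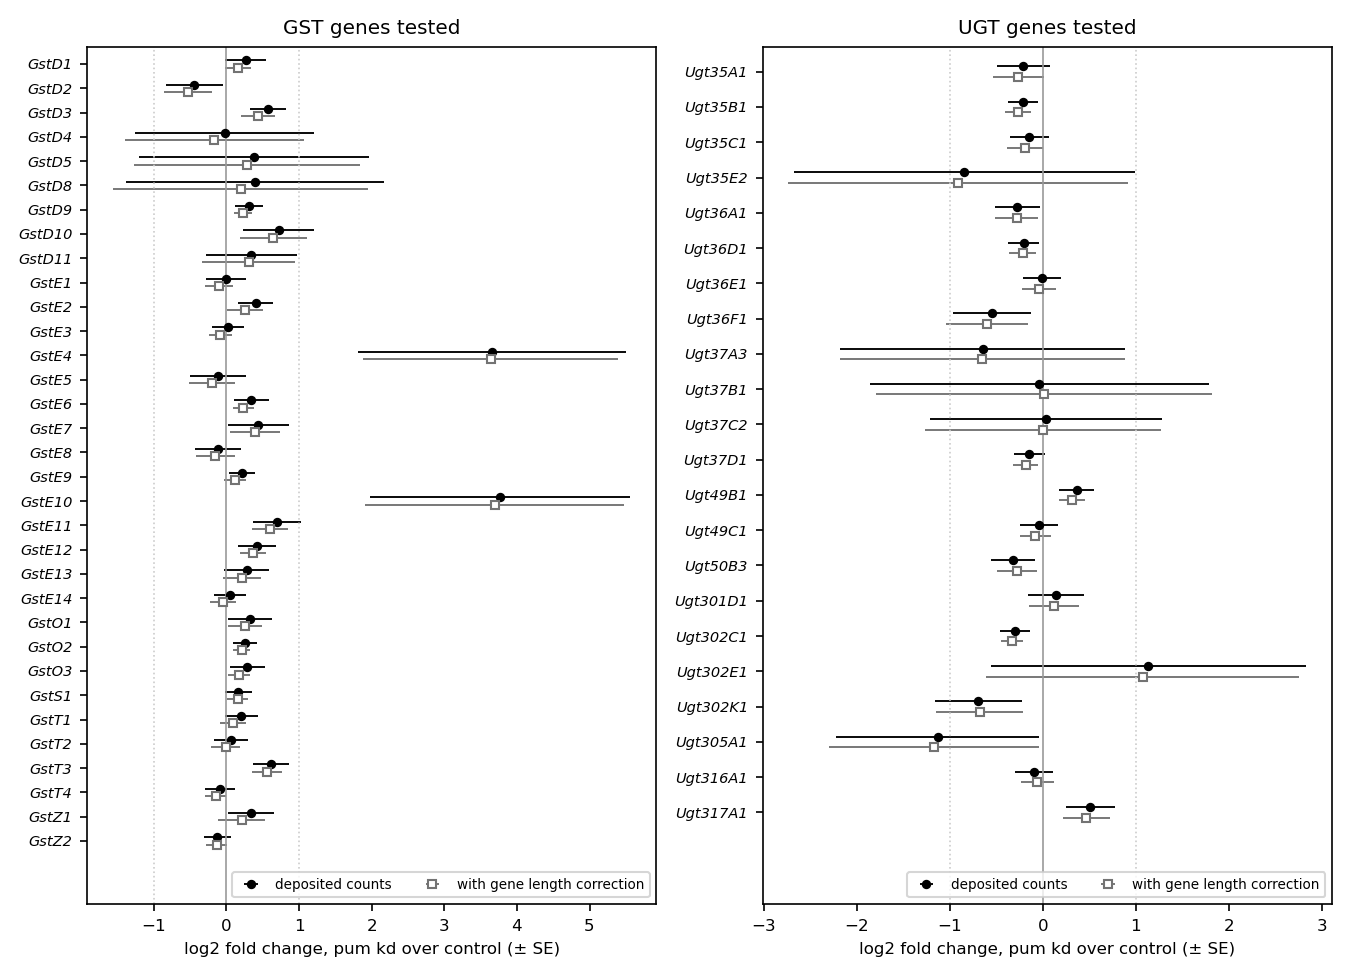
Fitted log2 fold change (pum kd over control, with standard error as bars) of the 33 GST genes (left) and 22 UGT genes (right) tested, from the deposited counts (black circles) and after a correction for gene length in each library (open squares). Dotted lines mark a change of 1 in either direction. Most GST values lie right of 0 and most UGT values left of it, and the values past the dotted lines have wide bars.

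Delta GSTs summed to 870, 522 and 568 CPM in pum kd libraries 1, 2 and 3, and to 362, 690 and 566 CPM in control libraries 1, 2 and 3. Pum kd 1 was the highest and control 1 the lowest, and the other 4 libraries overlapped. GstD1 was likewise highest in pum kd 1 and lowest in control 1, with 762, 432 and 476 CPM in pum kd heads and 306, 600 and 483 CPM in control heads (log2 fold change 0.27, SE 0.28, adjusted p = 0.993 by edgeR). Without pum kd 1 its log2 fold change was -0.03. GstD3, a small delta gene, had 23.4, 17.5 and 19.0 CPM in pum kd heads and 11.9, 10.4 and 17.9 CPM in control heads (log2 fold change 0.57, SE 0.25, unadjusted p = 0.041 and adjusted p = 0.928 by edgeR). Control 3 lay between the pum kd values. GstD2 was on the other side of 0, with a log2 fold change of -0.44 (SE 0.39). GstD6 and GstD7 were not tested. GstD6 had 14 counts in pum kd 1 and GstD7 had 10 counts in pum kd 2, and both had 0 in all other libraries.

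Epsilon GSTs summed to 775, 580 and 486 CPM in pum kd libraries and to 369, 626 and 466 CPM in control libraries, so that the groups overlapped. GstE12 had 454, 329 and 265 CPM in pum kd heads and 191, 346 and 248 CPM in control heads (log2 fold change 0.42, SE 0.26). GstE14, the enzyme noppera-bo that ecdysteroid synthesis needs, had 22.3, 15.2 and 17.5 CPM in pum kd heads and 15.2, 18.6 and 19.3 CPM in control heads (log2 fold change 0.05). It was chosen for its role, after its values were seen. The members with the largest fitted changes were both epsilon genes with few reads.

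GstE10 (2R, 18396638 to 18398519) had 24, 23 and 29 counts in pum kd libraries and 0, 0 and 5 counts in control libraries. All pum kd libraries lay above all control libraries. The fitted log2 fold change was 3.77 with an SE of 1.79 (unadjusted p = 0.061, adjusted p = 0.993 by edgeR). GstE10 overlaps GstE1 on the opposite strand by 20 bases. GstE1 lies at a far higher level, with 48.0, 34.7 and 28.0 CPM in pum kd heads and 23.2, 46.4 and 41.4 CPM in control heads. GstE4, in the same array, had 190, 157 and 0 counts in pum kd libraries and 0, 27 and 0 in control libraries (log2 fold change 3.66, SE 1.84). Values of 0 beside higher counts were common in these libraries at low level: of all genes for which 20 to 40 reads were predicted from the remaining libraries, 12.9% to 27.3% were at 0, depending on the library.

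Omega GSTs summed to 203, 160 and 134 CPM in pum kd libraries and to 118, 159 and 133 CPM in control libraries. GstO3 had 92.9, 57.8 and 53.7 CPM in pum kd heads and 46.6, 69.4 and 51.5 CPM in control heads (log2 fold change 0.29, SE 0.24), and without pum kd 1 the value was -0.0029. The sigma gene GstS1, a GST known to be abundant in flight muscle, had 83.7, 88.5 and 93.3 CPM in pum kd heads and 78.3, 96.0 and 62.6 CPM in control heads (log2 fold change 0.16, SE 0.18). The zeta gene GstZ2 had 104, 88.1 and 74.8 CPM in pum kd heads and 82.1, 110 and 98.2 CPM in control heads (log2 fold change -0.12, SE 0.18). In all of these genes the groups overlapped.

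Theta GSTs held the member with the lowest p. GstT3 (X, 20467455 to 20469796) had 19.1, 15.6 and 15.3 CPM in pum kd heads and 9.51, 14.6 and 8.53 CPM in control heads. All pum kd values lay above all control values, though control 2 came within 1 CPM of the lowest pum kd library. The log2 fold change was 0.61 (SE 0.25, unadjusted p = 0.033, adjusted p = 0.879 by edgeR). Leaving out each library in turn gave 0.46 to 0.94. The batches that the authors corrected for were recovered from their normalized values, with pum kd 1, control 1 and control 2 in batch A and pum kd 2, pum kd 3 and control 3 in batch B. The log2 ratio of pum kd to control for GstT3 was 0.66 within batch A and 0.85 within batch B. In DESeq2 after the ComBat-seq batch correction, the authors' own sequence of steps, the log2 fold change of GstT3 was 0.81, under the threshold of 1. Its adjusted p there was 0.00544, in a setting where 13.6% of all genes had an unadjusted p under 0.05. The adjusted p was 0.103 by edgeR after ComBat-seq and 0.850 by edgeR with a batch term. By limma on the deposited normalized values it was 0.0871. GstT4, the theta gene with the highest level, had 80.0, 57.0 and 79.9 CPM in pum kd heads and 59.9, 92.5 and 78.9 CPM in control heads (log2 fold change -0.09, SE 0.21).

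**Figure D4:**
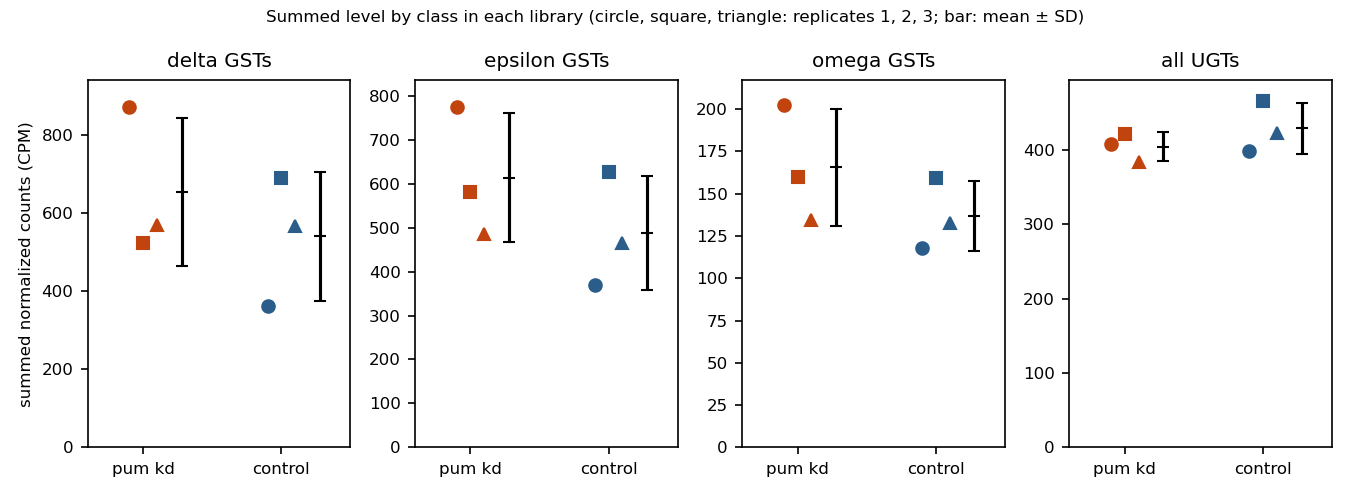
Summed CPM of the delta, epsilon and omega GSTs and of all UGTs in each library, with pum kd (orange) left of control (blue) in each panel and the mean ± SD as bars. In the 3 GST panels pum kd 1 is the highest and control 1 the lowest library, and the UGT values of the groups overlap within 384 to 466 CPM.

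A pair of libraries stood at the ends of most GST ranges. Pum kd 1 was the highest library for 22 of the 33 GST genes tested and control 1 the lowest for 19, which is 66.7% and 57.6%, where these libraries were so for 18.7% and 24.2% of all genes. The summed GST level had a log2 ratio of 0.25 with all libraries, 0.05 without pum kd 1 and 0.44 without control 2. The number of GST genes above 0 was 19 of 33 without pum kd 1 and 32 of 33 without control 2. Within batch A (pum kd 1 against control 1 and 2) the log2 ratio of the summed level was 0.57, and within batch B (pum kd 2 and 3 against control 3) it was 0.07. At 10 CPM or more on average, the median coefficient of variation of GST genes was 19.1% among pum kd libraries and 22.8% among control libraries, beside 14.7% and 16.9% for all genes at that level, while UGT genes had 15.2% and 14.2%.

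The same libraries stood apart by transcript length. GST genes are short, with a median exon length of 887 bases among those tested, beside 1881.5 for the UGT genes tested and 2003.5 for all genes tested. Genes of under 800 bases had a median log2 level, relative to the mean of the 6 libraries, of 0.30 in pum kd 1, -0.01 in pum kd 2 and -0.10 in pum kd 3, and of -0.33 in control 1, 0.25 in control 2 and -0.06 in control 3. Genes of 4000 bases or more had -0.27 in pum kd 1 and 0.35 in control 1. With a smooth correction for length in each library, the median log2 fold change of the GST genes was 0.21, with 23 above 0 and 10 below, control 1 was the lowest library for 15 genes and pum kd 1 the highest for 11. The 5 antennal markers summed to 1252, 642 and 668 CPM in pum kd libraries and to 442, 945 and 656 CPM in control libraries, so pum kd 1 and control 2 were the highest and control 1 the lowest, as for the GST sum (2188, 1556 and 1493 CPM in pum kd libraries, 1116, 1834 and 1454 CPM in control libraries). The part of antennal RNA in the GST values was not tested.

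**Figure D5:**
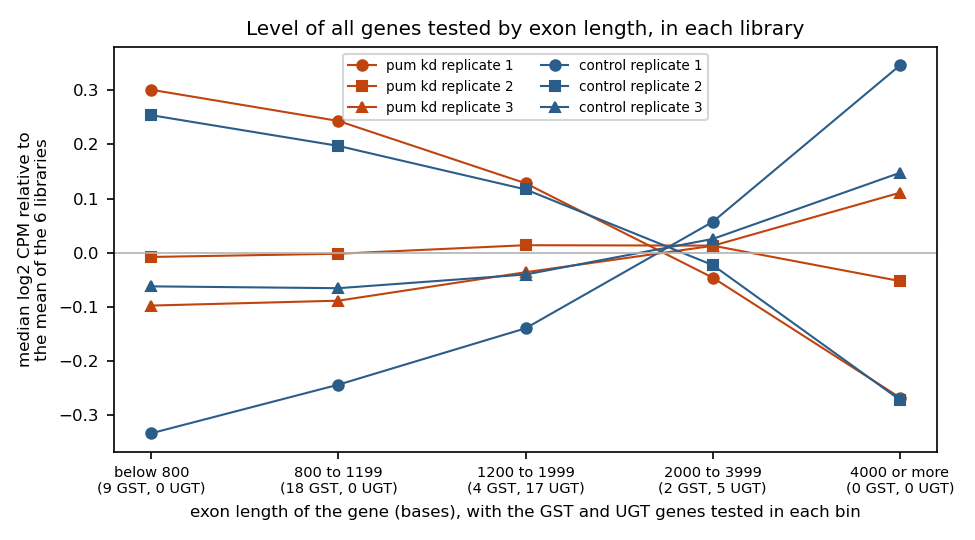
Median log2 level of all genes tested, relative to the mean of the 6 libraries, by exon length in bases, in pum kd (orange) and control (blue) libraries. Genes under 800 bases are at 0.30 in pum kd 1 and -0.33 in control 1, and the order is turned round in genes of 4000 bases or more. The number of GST and UGT genes stands under each bin, and 27 of the 33 GST genes lie in the lowest 2.

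Ugt302C1 was among the UGT genes whose groups did not overlap. It had 40.6, 40.7 and 42.3 CPM in pum kd heads and 45.5, 56.4 and 50.0 CPM in control heads, and each pum kd value lay below each control value. The log2 fold change was -0.30 (SE 0.16, unadjusted p = 0.088, adjusted p = 0.993 by edgeR), with -0.33 within batch A and -0.27 within batch B. With the length correction it was -0.33. The UGT302 family as a sum had 46.4, 43.7 and 44.6 CPM in pum kd libraries and 49.3, 61.5 and 57.1 CPM in control libraries. Ugt302C1 made up most of that sum, so the sum says little about the other genes of the family.

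The 9-gene array that holds Ugt302C1 had a lower sum in every pum kd library than in any control library. Most of the sum came from Ugt35B1 and Ugt302C1, and Ugt302C1 was already picked because its groups did not overlap. In the other arrays with reads, the sums of the groups overlapped. It summed to 114, 122 and 105 CPM in pum kd libraries and to 131, 142 and 137 CPM in control libraries, a log2 ratio of -0.26. When any single library was dropped, the ratio was -0.31 to -0.21. Of its 6 genes tested, 5 had a fitted change below 0 and 1 above, and none passed the test. Ugt35B1 made the largest part of that sum, with 58.5, 72.1 and 54.2 CPM in pum kd heads and 72.4, 71.0 and 70.7 CPM in control heads, where pum kd 2 lay within the control range (log2 fold change -0.21, SE 0.16). The array was singled out after its values were seen, and no test of its sum was made.

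Of the other genes of the array, Ugt35A1 had 9.60, 5.18 and 6.34 CPM in pum kd heads and 7.49, 8.19 and 8.71 CPM in control heads (log2 fold change -0.21, SE 0.29). Ugt302K1 had 5.22, 2.43 and 1.81 CPM in pum kd heads and 3.81, 5.08 and 6.41 CPM in control heads (log2 fold change -0.69, SE 0.47). In both the groups overlapped, and the remaining genes had few reads or none. Ugt303A1 (3R, 11175529 to 11177910) had 0 counts in all pum kd libraries and 12, 17 and 8 counts in control libraries, and it did not pass the filter for testing. Its mean control level was 4.27-fold a floor of 3 counts per pum kd library. This leaves out the counting error of the control counts, and values of 0 were common in these libraries at low level. Ugt302E1 had 18, 22 and 18 counts in pum kd libraries and 0, 1 and 24 in control libraries (log2 fold change 1.14, SE 1.70). Ugt35E2 had 0, 38 and 0 counts in pum kd libraries and 37, 17 and 8 in control libraries. These counts overlap, and edgeR gave a log2 fold change of -0.85 (SE 1.84).

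Ugt36D1, in another array on 2L, had 26.6, 23.9 and 24.5 CPM in pum kd heads and 28.6, 30.8 and 27.1 CPM in control heads. The groups did not overlap, with a gap of less than 1 CPM (log2 fold change -0.21, SE 0.17). Ugt305A1 had 19, 16 and 14 counts in pum kd libraries and 33, 43 and 28 in control libraries (log2 fold change -1.13, SE 1.09). Ugt37D1 had 41.2, 44.3 and 41.2 CPM in pum kd heads and 41.1, 46.0 and 53.0 CPM in control heads (log2 fold change -0.14, SE 0.16). In the UGT37 family, Ugt37C1 had 25 counts in control 2 and 0 elsewhere, and Ugt37E1 had 13, 1 and 0 counts in pum kd libraries and 0 in all control libraries.

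A few UGT genes lay on the other side. Ugt317A1 had 10.7, 10.4 and 9.73 CPM in pum kd heads and 5.35, 7.19 and 9.15 CPM in control heads, without overlap (log2 fold change 0.51, SE 0.26, unadjusted p = 0.078 by edgeR). The log2 ratio was 0.78 within batch A and 0.14 within batch B. Ugt49B1 had 71.2, 69.6 and 51.9 CPM in pum kd heads and 48.8, 57.5 and 43.4 CPM in control heads, where control 2 lay above pum kd 3 (log2 fold change 0.36, SE 0.19). As a share of the UGT levels summed per kilobase, it was 15.1% to 19.2% in pum kd libraries and 11.5% to 13.7% in control libraries, and these ranges do not overlap. This share was computed after the values were seen and was not tested. Its neighbour Ugt49C1 on 2R had 41.1, 33.3 and 30.8 CPM in pum kd heads and 27.5, 40.6 and 40 CPM in control heads (log2 fold change -0.04, SE 0.20).

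Genes around the conjugating enzymes gave 0 calls in the edgeR test, which called 0.103% of all genes. Calls under the other settings are not given for these genes. The list held 26 genes for glutathione synthesis and recycling, regulation, GST relatives, UDP-sugar supply, export of conjugates, sulfotransferases and epoxide hydrolases. Of the 22 tested, 10 had a fold change above 0 and 12 below. The regulators cnc (the fly Nrf2), Keap1, maf-S and Hr96 ranged from -0.03 to 0.19 in log2 fold change. All 4 export genes, MRP, Mdr49, Mdr50 and Mdr65, had values below 0, from -0.36 to -0.22, with SEs of 0.16 to 0.80. In each of them the groups overlapped, and with the length correction the values were -0.19 to -0.13. Trxr1, whose enzyme helps keep glutathione reduced in flies, had 335, 295 and 292 CPM in pum kd heads and 240, 278 and 266 CPM in control heads, without overlap (log2 fold change 0.23, SE 0.17).

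The relative of the omega GSTs named se (sepia), whose enzyme makes a precursor of the red eye pigments, had 31.2, 26.7 and 26.3 CPM in pum kd heads and 15.5, 10.9 and 8.88 CPM in control heads. All pum kd libraries lay well above all control libraries. Its log2 fold change was 1.25 (SE 0.24, unadjusted p = 2.93e-04 by edgeR), and the adjusted p of 0.136 missed the threshold. With the length correction the log2 fold change was 1.11. An exon of se overlaps GstO2 on the opposite strand by 61 bases. GstO2 had 92.0, 87.0 and 68.4 CPM in pum kd heads and 64.2, 73.0 and 69.3 CPM in control heads, which overlap (log2 fold change 0.26, SE 0.17).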

How the data were processed

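The authors checked the reads with FastQC 0.12.1, trimmed them with Trimmomatic 0.39, and used STAR 2.7.11b for alignment to dm6 and for counting. They deposited raw counts per gene, and a second table with a normalized signal per library (counts after ComBat-seq divided by DESeq2 size factors) beside the p-values, log2 fold changes and Wald statistic (a score) that the authors took from DESeq2. These comparison columns were not used. The annotation of the counting is not given in the sources used here. Rows that name no gene held 11.5% to 14.2% of a library and were left out.

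Symbols came from the authors' table for 51 of the 70 members and otherwise from a gene-name table. Positions and exon lengths came from an Ensembl annotation of the same assembly. The quasi-likelihood test of edgeR 4.0.16 was run in R 4.3.3 after filterByExpr and TMM scaling, with group as the only term. DESeq2 1.42.0, limma 3.58.1 and sva 3.50.0 served for alternatives. The tests were tried on simulated data. Of 24 divisions of the libraries into batches, exactly 1 gave back 100% of the deposited normalized values in ComBat-seq and the next best 4.27%. It put control 1, control 2 and pum kd 1 in batch A and the others in batch B. No pair of libraries of a group looked like the same library (chi-square over its degrees of freedom, 45.8 or more).

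Alternatives were DESeq2, RLE size factors, no filter, a mean of at least 1 CPM, robust dispersion, a replicate block, a batch term, ComBat-seq before edgeR or DESeq2, limma on the deposited normalized values with a pseudocount of 1, a gene length correction (loess, span 0.3), and each library left out. Genes named were the 6 tested genes whose groups do not overlap, the highest of each GST class and the 5 highest UGTs. Also named were the 3 with the largest fold change, and those at 0 in a whole group with at least 10 counts in a library of the other. Others were named after their values were seen. The members and lists were chosen with earlier results of these data known. No sequences were used here.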

Additional observations from a re-analysis of the deposited data

How the results depend on the processing

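No member was called under any of the 11 alternatives that keep all libraries or the 6 that leave a library out, except that ComBat-seq followed by DESeq2 called 1, Ugt35E2 (log2 fold change -6.00, adjusted p = 0.0162), whose deposited counts overlap between the groups. That setting called 1.89% of all genes, and 1 member is 1.82% of those tested. The number of members at an unadjusted p under 0.05, 2 as reported, was 5 without a filter, 4 with the batch term, 9 with ComBat-seq and edgeR, 9 with ComBat-seq and DESeq2, 8 with limma on the deposited normalized values, 4 with the gene length correction, and 1 to 12 with a library left out, 12 without control 2. As shares these are 3.64% as reported, 7.94%, 7.27%, 16.4%, 16.4%, 15.7%, 7.27% and, without control 2, 21.8%, beside 4.95%, 5.21%, 4.72%, 12.6%, 13.6%, 13.1%, 7.82% and 13.2% of all genes. With another library left out, these shares ran from 1.82% to 9.09%, beside 3.77% to 5.71% of all genes. The number whose groups do not overlap, 6 as reported, was 12 with limma on the deposited normalized values. With a library left out it was 8 to 18, 18 without control 2. The shares of 10.9% as reported, 23.5% and, without control 2, 32.7% stand beside 10.3%, 18.2% and 32.2% of all genes. With another library left out they ran from 14.5% (without pum kd 1) to 25.5% (without control 3). In both of these settings the share of all genes was 16.3%. The replicate numbers do not pair the libraries (correlations of same-numbered libraries -0.23, -0.04 and 0.05), and with a replicate block 0 members were called and 3 had an unadjusted p under 0.05, which changed no call. The number of GST genes above 0 was 19 to 32 and of UGT genes below 0 was 14 to 18 with a library left out. Of the 18 genes named by the rule and tested, 13 kept their sign in every alternative that gave them a value. Ugt49C1 was at 0.0072 without a filter and ranged from -0.20 to 0.10 with a library left out, GstD1 from -0.028 to 0.55, GstO3 from -0.0029 to 0.53, GstT4 from -0.25 to 0.11 and GstZ2 from -0.25 to 0.032. The causes were not tested. With 3 libraries a group, standard errors of the members ran from 0.16 to 1.84 on the log2 scale. Changes under 1 in size could not be called by the rule. Changes above 1 could also go uncalled where the error was large, as for GstE10 (log2 fold change 3.77, SE 1.79). Values near 0 counts were limited by reads missing from single libraries.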
